A study of Oryza sativa with 72 samples.

Results

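Leaves of drought-treated rice were compared with leaves of irrigated rice on drought day 6, in the second latest leaf of the cultivar IR64, an indica rice. The comparison was defined by the library labels: all 3 libraries of severe drought at day 6 in that leaf were set against all 3 control libraries of the same day and leaf, 6 of the 72 libraries in the series. Plants grew singly in pots fed from below by an automatic irrigation system. At 14 days after sowing the pots of the treated plants were raised so that they drained. Drought lasted 9 days and was followed by 6 days of watering, while control plants stayed irrigated throughout. Both the latest fully expanded leaf and the one before it were taken, on drought days 0, 6 and 9, then 2 h, 3 days and 6 days into watering, with 3 libraries for each treatment, leaf and stage. The labels name no genotype other than IR64 and no treatment beyond drought and watering.

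When soil dries, roots and leaves of rice make more abscisic acid, the hormone that closes stomata and turns on genes for dehydration protection. Leaves under longer drought usually lower their transcripts for photosynthesis and growth, and older leaves may begin to senesce. Abscisic acid falls again when water returns. The rows of the count table carry a line number and no gene identifier, so these programmes could not be assigned to single rows here. Each row is called a feature and named by its line, and no list of drought, photosynthesis or cell type genes was applied. The labelled tissue was not checked against marker genes for the same reason. In bulk leaf RNA, fewer cells of a type and less RNA per cell cannot be told apart.

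Each treated library was deeper than each control, and 1 control was the shallowest by far. The 3 control libraries held 12536021, 12385983 and 8075275 counts, and the 3 treated libraries 14729825, 15617927 and 14572745. Between 25442 and 26251 features had at least 1 count in the controls and between 27157 and 27394 in the treated libraries. In all 6 libraries 22122 of the 55986 rows were at 0. Levels are given as CPM, counts relative to the library total after scaling by the trimmed mean of M values (TMM), and 3 counts corresponded to 0.166 to 0.332 CPM, which covers counting error only. CPM is not corrected for transcript length, so levels of different features are not ranked against each other. The root mean square SD of log2 CPM within groups was 0.43 in the control and 0.39 in the treated libraries. Whether the 3 libraries of a group stem from different plants is not stated in the labels. The p-values therefore reflect only how far libraries differed, part of which may be technical. For this leaf they rest on a spread estimated over all 36 of its libraries, not on the 6 alone.

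At day 6, 214 features were higher and 157 lower in drought-treated leaves (edgeR quasi-likelihood test, Benjamini-Hochberg adjusted p under 0.05 over 20950 features). The 371 called features were 1.77% of those tested. With the default dispersion setting of this edgeR version, which the main fit did not use, 303 were called. DESeq2 called 765, and edgeR fitted to the 6 libraries alone called 24, of which 16 were among the 371. The median log2 fold change, treated over control, was 1.19 for the higher set and -0.999 for the lower set, with a median of -0.01 over all features tested. At least 2-fold changes made up 127 of the higher and 78 of the lower calls, and at least 4-fold changes 48 and 36. Most calls lay near the threshold: 17 higher and 15 lower features had an adjusted p under 0.01, and 115 and 75 had one between 0.03 and 0.05. The higher set took 0.595%, 0.640% and 0.550% of all counts in the control libraries and 1.72%, 0.988% and 1.29% in the treated ones. The lower set took 1.01%, 0.885% and 1.02% in controls and 0.435%, 0.601% and 0.450% in treated libraries, a direction that the choice of features fixes.

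The number of calls depended on single libraries. Leaving out control replicate 3 left 3 calls, and leaving out treated replicate 1 left 5. Without treated replicate 3 there were 128 calls, without control replicate 2 there were 221, and without treated replicate 2 there were 672. All 371 features kept the sign of their fold change in each of these fits, which reuse libraries that chose the features. Only features 9453, 31265 and 35558, all lower in drought, stayed called whichever of the 6 libraries was left out.

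Called features were found at all levels of expression. Among the 2732 features with a mean under 1 CPM over the 6 libraries, 9 were called higher and 12 lower (0.769%). From 1 to 10 CPM there were 71 and 42 calls among 7286 features (1.55%), from 10 to 100 CPM 118 and 84 among 9354 (2.16%), and at 100 CPM or more 16 and 19 among 1578 (2.22%). The median size of the called log2 fold changes was 2.92 in the lowest class and 0.86 and 1.00 in the highest classes. Calls at low counts thus had larger changes, which follows in part from the threshold, as small changes at low counts seldom reach it. The control and treated libraries left a gap without overlap in 202 of the 214 higher and 147 of the 157 lower features. Of all features tested, 19.6% had such a gap in either direction. The features were called in these same 6 libraries, so their choice largely fixes the gap.

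**Figure D1:**
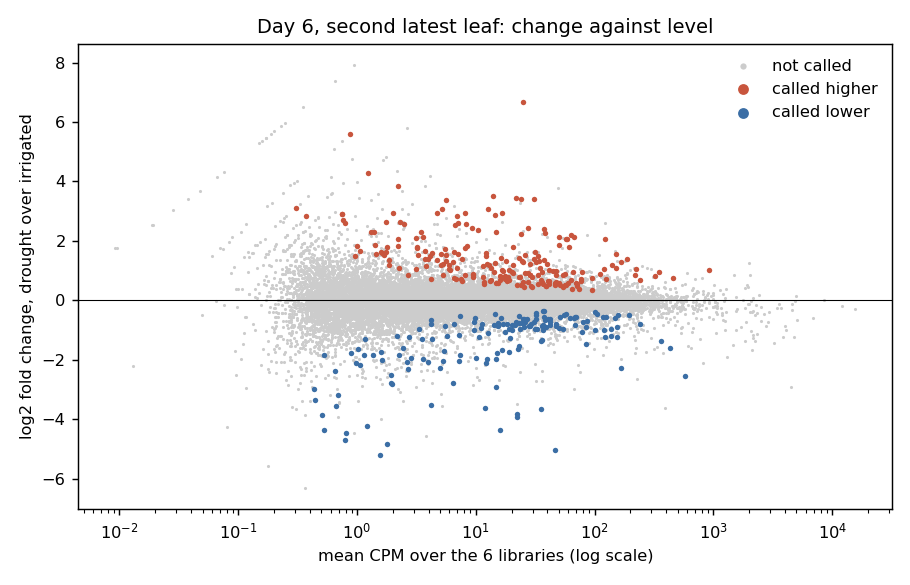
Log2 fold change (drought over irrigated) of each feature tested on day 6 in the second latest leaf, against its mean CPM over the 6 libraries on a log axis. The 214 features called higher and the 157 called lower lie at all levels, and calls with small fold changes lie to the right, at higher counts.

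These 3 features were lower in drought in all 12 alternative analyses, the leave-outs included. Feature 35558 stood at 76.0, 66.8 and 125 CPM in the control libraries and at 1.55, 4.55 and 2.12 CPM in the treated ones. Each treated library was far below each control (log2 fold change -5.03, SE 0.65, edgeR adjusted p = 0.000395). Feature 9453 stood at 45.0, 24.9 and 55.9 CPM in controls and 0.803, 4.44 and 3.15 CPM in treated libraries (-3.91, SE 0.53, edgeR adjusted p = 0.000563). The counts of feature 31265 were lower. Its control libraries stood at 4.87, 1.70 and 3.87 CPM and its treated libraries at 0.115, 0.111 and 0.115 CPM, below the level of 3 counts (edgeR adjusted p = 0.000851). It was named after its values were seen.

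The other large falls came from features with a mean of at least 10 CPM in controls and no overlap between groups, the rule for the largest changes, which 104 lower and 140 higher features met. Feature 32024 stood at 57.1, 5.16 and 29.5 CPM in controls and 1.32, 2.99 and 0.172 CPM in treated libraries (log2 fold change -4.35, SE 0.81, edgeR adjusted p = 0.0098). Its lowest control, replicate 2, was less than 2-fold above its highest treated library, also replicate 2. Feature 19456 stood at 67.6, 51.1 and 79.1 CPM in controls and 0.631, 12.4 and 2.81 CPM under drought (-3.66, SE 0.77, edgeR adjusted p = 0.0161). Features 35640, 23624 and 29414 completed the 8 largest falls, with log2 fold changes of -3.81, -3.63 and -2.78. In feature 35640 the control libraries ranged from 15.4 to 76.1 CPM and the treated ones from 2.35 to 3.90 CPM. All but 35558 and 9453 among these 8 falls lost their call both without control replicate 3 and without treated replicate 1.

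Feature 35557, the line before 35558, was among the 8 largest falls and also had the highest counts of any lower feature. It stood at 1199, 775 and 984 CPM in control libraries and at 129, 316 and 68.2 CPM in treated ones (log2 fold change -2.55, SE 0.51, edgeR adjusted p = 0.0131). Calls on neighbouring lines occurred in 8 pairs, 5 of them in one direction. Of 217 called features whose next line was also tested, 3.69% had a called next line, beside 1.77% of all features tested. The other pairs in one direction were 24871 with 24872, 35536 with 35537, 1103 with 1104 and 44345 with 44346. Whether such lines share reads between near-identical copies was not tested, because no source used here states how reads with several matches were counted.

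The largest rises differed widely between the treated libraries. Feature 44425 had 0, 14 and 3 counts in the control libraries (0, 1.03 and 0.332 CPM) and stood at 100.1, 2.61 and 45.5 CPM in the treated ones (log2 fold change 6.68, SE 1.47, edgeR adjusted p = 0.02). Treated replicate 2 was thus close to the highest control. Feature 5267 stood at 4.10, 4.65 and 2.10 CPM in controls and 74.2, 15.2 and 31.2 CPM under drought (3.44, SE 0.78, edgeR adjusted p = 0.0221). Feature 55417 stood at 3.86, 8.04 and 3.98 CPM in controls and 120.4, 29.5 and 21.1 CPM under drought (3.40, SE 0.89, edgeR adjusted p = 0.0455). In both features treated replicate 1 was the highest library and the groups did not overlap.

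Feature 24872 rose more evenly, from 2.09, 2.58 and 3.54 CPM in controls to 36.2, 14.5 and 17.3 CPM under drought (log2 fold change 3.06, SE 0.57, edgeR adjusted p = 0.0098). Its neighbour 24871 stood at 2.55, 1.55 and 3.10 CPM in controls and 21.5, 9.32 and 11.2 CPM under drought (2.57, SE 0.58, edgeR adjusted p = 0.0224). Feature 3994 stood at 3.32, 4.13 and 2.99 CPM in controls and 26.9, 4.60 and 45.8 CPM under drought (2.87, SE 0.76, edgeR adjusted p = 0.0475). Here treated replicate 2 was little above control replicate 2. The remaining large rises were features 55164, 18563 and 38938, with log2 fold changes of 3.38, 2.95 and 2.94, and their highest library was treated replicate 1 in each case. All 8 rises lost their call both without control replicate 3 and without treated replicate 1.

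**Figure D2:**
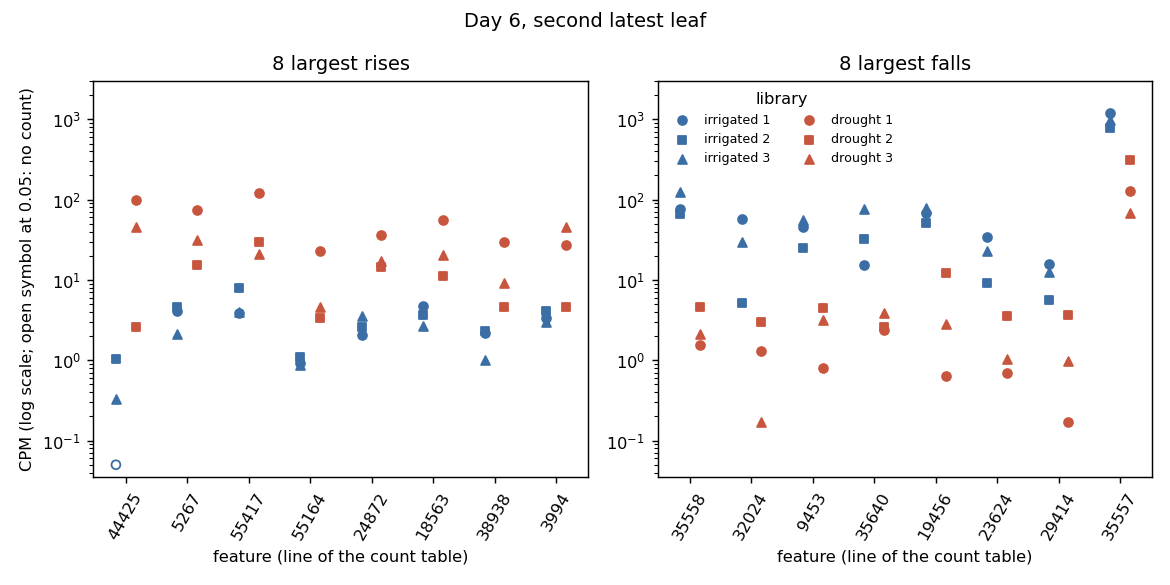
CPM on a log axis of the 8 largest rises and the 8 largest falls among features with at least 10 CPM in the higher group and no overlap between groups, 1 symbol per library and shape by replicate number. Treated replicate 2 (red squares) lies nearest to the irrigated libraries in most of the features, as in feature 44425 at 2.61 CPM.

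Besides feature 35557, 7 features with the highest counts among the calls of their direction were followed. Feature 32388 stood at 765, 584 and 478 CPM in controls and 1751, 976 and 979 CPM under drought (log2 fold change 1.01, SE 0.23, edgeR adjusted p = 0.0221). Feature 18205 stood at 308, 422 and 284 CPM in controls and 785, 395 and 548 CPM under drought, so that treated replicate 2 lay below control replicate 2 (0.76, SE 0.17, edgeR adjusted p = 0.0215). Features 6452 and 5767 rose by 0.97 and 0.83 on the log2 scale. Among the falls, feature 29116 went from 747, 624 and 563 CPM in controls to 200.3, 315 and 128 CPM under drought (-1.60, SE 0.31, edgeR adjusted p = 0.00996). Feature 38603 stood at 687, 399 and 460 CPM in controls and 117, 312 and 178 CPM under drought, and feature 54378 changed by -0.78. These calls, too, ended both without control replicate 3 and without treated replicate 1.

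Treated replicate 2 was the treated library closest to the controls on the first principal component and in correlation. On the first principal component of the 6 libraries (41.5% of the variance) the controls lay at -41.1, -18.5 and -47.4 and the treated libraries at 57.8, 9.37 and 39.8. The mean correlation of its log2 CPM with the controls was 0.973, against 0.952 and 0.959 for treated replicates 1 and 3. Replicate 2 was the least changed of the treated libraries in 160 of the 214 higher and 104 of the 157 lower features (74.8% and 66.2%), where it was least changed in 29.2% and 30.2% of all features tested. Treated replicate 1 was the most changed in 159 and 78 of them. These features were chosen in the same libraries. Of the 532 features called higher in the latest leaf, 399, 373 and 332 lay above all controls in treated replicates 1, 2 and 3. The shares of all features tested were 28.8%, 24.3% and 26.7%. Of its 381 lower features 297, 272 and 245 lay below all controls, beside 29%, 22.6% and 25.1% of all features. By these counts replicate 3 was the least changed, while replicate 2 had the lowest score for the same features, given below. Of the 256 features called higher at drought day 9 in the second latest leaf, 157, 140 and 181 lay above all controls in treated replicates 1, 2 and 3. Of the 355 called lower at day 9, 224, 184 and 258 lay below all controls. By the day 9 counts replicate 2 was the least changed.

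Feature sets called in other comparisons were also followed in the 6 libraries. These sets are not fully independent of them: the sets of this leaf come from a fit whose filter and dispersions used all 36 libraries, and same-numbered libraries of the leaves deviated together, as given below. A score was taken for each library as the mean log2 CPM of a set's higher features minus that of its lower features, with the mean of the controls set to 0. For the 532 higher and 381 lower features that the latest leaf had on day 6 (4.34% of 21037 tested), the control libraries scored 0.13, 0.02 and -0.15 and the treated libraries 1.56, 1.07 and 1.28. All 3 treated libraries, replicate 2 included, lay well above the controls. With the features called at drought day 9 in the second latest leaf the controls scored -0.23, 0.50 and -0.27 and the treated libraries 1.36, 0.91 and 1.64, again without overlap. With the features called at 2 h of watering the treated libraries scored -0.06, -0.04 and 0.42 and overlapped the controls at -0.16, 0.15 and 0.01.

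**Figure D3:**
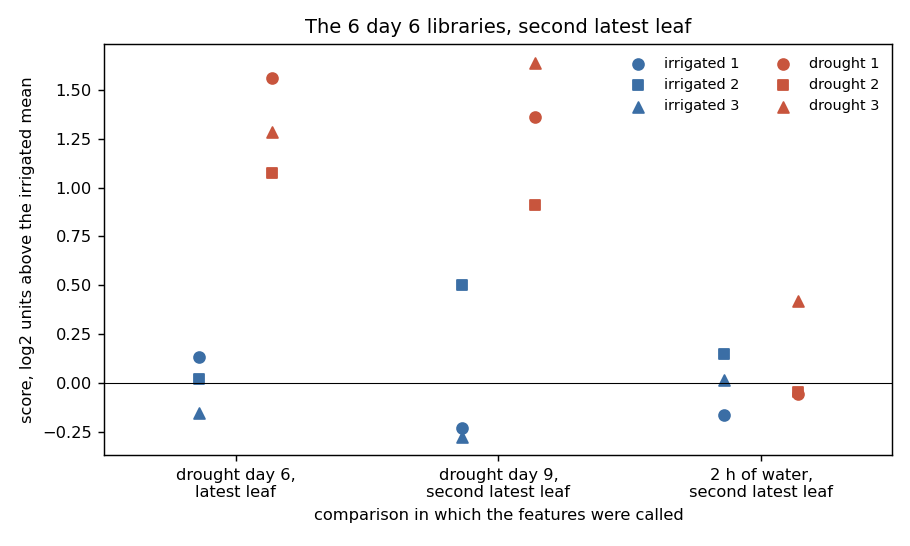
Scores of the 6 day 6 libraries of the second latest leaf for features called in 3 other comparisons, in log2 units above the mean of the irrigated libraries, 1 symbol per library. Treated libraries lie above all irrigated ones for the sets of drought day 6 in the latest leaf and of drought day 9, and overlap them for the set of 2 h of watering.

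The latest leaf of the same day showed the same direction in most called features. Of the 212 higher features also tested there, 210 had a positive fold change (99.1%, beside 50.4% of all features), and of the 154 lower ones 146 had a negative one (94.8%, beside 49.5%). The median log2 fold change in the latest leaf was 0.75 for the higher and -0.67 for the lower set. In the latest leaf 76 of the higher and 43 of the lower features were called in the same direction and 0 in the opposite one. These were 35.8% and 27.9% of the set features tested there, beside 2.53% called higher and 1.81% called lower of all features. They were 14.3% and 11.3% of the latest leaf's own calls in these directions. Same-numbered libraries of the leaves deviated from their group means together (r of 0.18 to 0.40 in 6 pairs), so these leaves cannot be taken as independent, and the labels do not say whether they came from the same plants. The number called in both leaves fell from 119 to 63, 2, 4 and 41 without control replicate 2, control replicate 3, treated replicate 1 or treated replicate 3 of the second latest leaf. Leaving out control replicates 1, 2 and 3 of the latest leaf gave 68, 76 and 37, and its treated replicates 1 and 3 gave 32 and 65.

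Feature 35558 stood at 27.7, 20.8 and 53.3 CPM in control and 1.46, 3.67 and 1.10 CPM in treated latest leaves (log2 fold change -3.99, edgeR adjusted p = 0.00309). Feature 9453 was at 134, 63.7 and 118 CPM in control and 6.48, 7.35 and 13.6 CPM in treated latest leaves (-3.54, edgeR adjusted p = 0.0374). Both groups were fully separated in either feature. Feature 24872 was at 2.04, 3.77 and 2.07 CPM in control and 26.4, 17.2 and 15.4 CPM in treated latest leaves (2.88, edgeR adjusted p = 0.0485). Feature 3994 was at 2.63, 1.37 and 3.35 CPM in control and 60.7, 18.8 and 36.7 CPM in treated latest leaves (4.00, edgeR adjusted p = 0.00114). Features 38880 and 17078 rose and features 40143 and 44895 fell in both leaves from under 10 CPM. Feature 40143 had 82, 0 and 26 counts in the control and 0, 4 and 0 counts in the treated second latest leaves, and control replicate 2 overlapped the treated libraries.

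The difference between the leaves was tested directly, first without pairing same-numbered libraries. In that form edgeR called 0 of 21824 features (0%) as differing in response between leaf positions at day 6, and DESeq2 called 2. An unadjusted p under 0.05 was found for 1100. With the replicate number as a block, which the correlation of same-numbered libraries calls for, edgeR called 5, of which 2 had a larger and 3 a smaller treated-to-control ratio in the second latest leaf. Without the block, leaving out control replicate 3 of the second latest leaf gave 1. Feature 5267 rose 3.44 on the log2 scale in the second latest leaf and had 0.72 in the latest leaf (edgeR adjusted p = 0.552). This difference between leaves was not called in the fit without the block.

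Most of these features had fold changes of the same sign when the treatment began, none of which passed the test. At drought day 0, 180 of the 214 higher features had a positive fold change (84.1%, beside 47.0% of all features) and 131 of the 157 lower features a negative one (83.4%, beside 53.0%). Medians were 0.27 and -0.29, and edgeR called 0 of 20950 features (0%) then, while 2190 had an unadjusted p under 0.05. Of the features called at day 6, 43 higher and 31 lower ones had an unadjusted p under 0.05 at day 0 in the same direction, and DESeq2 called 5 at both stages. The day 6 score, from the 371 features, was 0.89, 0.18 and 1.05 in the treated libraries of day 0 and -0.14, 0.22 and -0.08 in the controls. Treated replicate 2 of day 0 overlapped the controls. The change in response from day 0 to day 6 was therefore tested. It takes off this early difference but does not measure its part in the day 6 calls. Its SE was also larger than that of the day 6 fold change (0.82 against 0.65 in feature 35558). Few calls in that test thus do not show that the other day 6 differences were present at day 0.

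Only feature 35558 passed that test (1 of 20950 features, 0.00477%). It stood at 67.0 ± 26.8 CPM in control and 63.6 ± 24.7 CPM in treated leaves at day 0 (SD, n = 3 each), and at 89.3 ± 31.3 and 2.74 ± 1.59 CPM at day 6. The change in response was -4.94 on the log2 scale (edgeR adjusted p = 0.0351), and the call ended without any 1 of day 0 control replicates 1 to 3, day 0 treated replicate 2, day 6 control replicates 1 and 3, or day 6 treated replicates 1 and 3. At an unadjusted p under 0.05 there were 1518 features. Leaving out day 6 treated replicate 2 gave 3 calls and day 0 treated replicate 3 gave 2. Within each arm, the median change from day 0 to day 6 was -0.10 in controls and 0.76 in treated plants for the higher set, and 0.01 and -0.74 for the lower set. In treated plants edgeR called 161 of 20950 features between these days (0.768%; 82 up and 79 down), among them 33 of the higher features, all up, and 32 of the lower, all down. In controls it called 1 of 20950 (0.00477%), which was in neither set. These changes share the day 6 libraries that chose the features.

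At drought day 9 most day 6 calls had the same direction and smaller median fold changes, the day 6 values being those that chose the features. In libraries of their own, 195 of the 214 higher features (91.1%, beside 51.7% of all features) and 149 of the 157 lower ones (94.9%, beside 48.3%) had the same sign at day 9, with medians of 0.46 and -0.59. By edgeR 37 higher and 47 lower features were called at day 9 too and 0 in the opposite direction, where 2.92% of all features were called. They were 17.3% and 29.9% of the day 6 sets, and 14.5% and 13.2% of the day 9 calls. The number called at both days, 84, was 42, 2, 3 and 27 without control replicate 1, control replicate 3, treated replicate 1 or treated replicate 3 of day 6. The day 6 score at day 9 was 1.51 ± 0.40 in treated libraries (SD, n = 3) and -0.31 to 0.22 in controls, without overlap. A change in response between day 6 and day 9 was called in 0 of 20950 features (0%) by edgeR, in 5 by DESeq2, and in 1917 at an unadjusted p under 0.05. Leaving out day 6 control replicate 1 gave 4 calls.

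Some levels rose strongly from day 6 to day 9 in control leaves. Feature 5267 stood at 3.61 ± 1.34 CPM in controls at day 6 and at 50.8 ± 15.2 CPM at day 9. Treated leaves stood at 40.2 ± 30.5 and 72.3 ± 5.44 CPM (SD, n = 3 each), and the day 9 difference was not called (edgeR adjusted p = 0.742). Feature 24872 went from 2.74 ± 0.74 to 22.0 ± 5.18 CPM in controls and from 22.7 ± 11.8 to 53.7 ± 17.0 CPM in treated leaves. Controls also rose in features 18563 (3.71 ± 1.07 to 55.1 ± 15.8 CPM) and 38938 (1.81 ± 0.71 to 90.4 ± 37.7 CPM). They shifted little in features 55417, 55164 and 3994. Feature 35558 remained low under drought at day 9, at 5.65 ± 3.06 CPM against 113 ± 46.0 CPM in controls (log2 fold change -4.33, edgeR adjusted p = 0.000532). Feature 32024 stood at 0.223 ± 0.0628 CPM against 28.4 ± 21.3 CPM (-6.94, edgeR adjusted p = 0.000893). Feature 9453 stood at 0.529 ± 0.401 CPM against 6.96 ± 0.602 CPM (-3.67, edgeR adjusted p = 0.00375).

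At 2 h of watering the features raised on day 6 were divided, while most of those lowered on day 6 had fold changes below 0. Of the 214 higher features 118 had a positive fold change at 2 h (55.1%, beside 49.4% of all features), with a median of 0.08, and of the 157 lower ones 130 had a negative one (82.8%, beside 50.6%), with a median of -0.44. By edgeR 23 higher and 46 lower features were called in the same direction, 10.7% and 29.3% of the day 6 sets, and 18 and 3 in the opposite one. As 21.2% of all features were called at 2 h, with 12.8% called higher and 8.42% lower, the share of the higher set called again was below that of all features called higher. The number called again, 69, was 42, 2, 2, 20 and 111 without control replicate 1, control replicate 3, treated replicate 1, treated replicate 3 or treated replicate 2 of day 6. At 2 h the day 6 score was 1.14, 0.63 and 0.26 in the treated libraries, all above the controls at -0.03, 0.03 and -0.005.

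The features called in the same direction at day 6, at day 9 and at 2 h were 3 higher and 19 lower ones. The 3 higher ones changed by small factors. Feature 48441 stood at 4.79, 3.83 and 4.75 CPM in controls and 9.06, 8.48 and 11.0 CPM under drought at day 6, and its log2 fold changes were 1.09, 0.87 and 0.73 at the 3 stages. Features 17218 and 5656 had 0.85, 0.91 and 0.71, and 0.70, 0.74 and 0.90. Among the lower ones, feature 35558 stood at 2.23 ± 0.83 CPM in rewatered leaves and 19.0 ± 4.75 CPM in controls at 2 h (-3.08, edgeR adjusted p = 0.000887). Feature 9453 stood at 4.22 ± 3.26 CPM against 28.3 ± 3.20 CPM (-2.74, edgeR adjusted p = 0.000292), and feature 32024 at 0.416 ± 0.411 against 27.8 ± 5.30 CPM (-6.03, edgeR adjusted p = 6.91e-05).

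The response changed between day 6 and 2 h in 2479 features (11.8% of 20950), and without day 6 treated replicate 1 in 1390. The day 6 calls share their libraries with this contrast. Of them, 103 higher features had a smaller and 30 lower features a larger treated-to-control ratio at 2 h. Feature 24872, above the controls at day 6, was below them at 2 h, at 0.769 ± 0.355 CPM in rewatered and 6.11 ± 0.688 CPM in control leaves at 2 h (log2 fold change -2.96, edgeR adjusted p = 0.00214). Its change in response was -6.02 (SE 0.88, edgeR adjusted p = 0.000118). Its neighbour 24871 stood at 0.385 ± 0.0943 against 3.93 ± 0.992 CPM, with a change in response of -5.88 (SE 0.97, edgeR adjusted p = 0.000461). Feature 28232 was at 8.27, 6.34 and 5.31 CPM in controls and 155, 92.7 and 27.9 CPM under drought at day 6, which was not called (edgeR adjusted p = 0.116), and at 5.46 ± 2.68 against 42.5 ± 28.5 CPM at 2 h (change in response -6.73, edgeR adjusted p = 0.0129). Among calls with a group mean of at least 10 CPM, features 6001, 28120 and 20184 gained most from day 6 to 2 h. Their day 6 responses were not called.

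The 21 features called in opposite directions at day 6 and at 2 h were singled out after their values were seen. The 18 that were higher at day 6 and lower at 2 h had median log2 fold changes of 0.49 at day 0, 0.86 at day 6, 0.32 at day 9, -0.75 at 2 h and 0.15 at day 3 of watering. At day 6 of watering the median was 0.05, and 11 of the 18 were above 0; feature 14256 had 0.56 there (edgeR adjusted p = 0.0515) and 0.55 at drought day 6. At day 9 edgeR called 6 of them higher, beside 1.22% of all features, and 12 were called higher in the latest leaf on day 6, beside 2.53%. Feature 19306 stood at 8.19, 32.7 and 26.1 CPM in controls and 69.1, 60.8 and 182 CPM under drought at day 6, and at 4.03 ± 0.438 in rewatered against 20.3 ± 4.73 CPM in control leaves at 2 h. Feature 37753 stood at 12.6, 16.4 and 13.5 CPM in controls and 33.4, 34.1 and 38.6 CPM under drought at day 6, and at 7.73 ± 2.30 against 16.3 ± 1.92 CPM at 2 h. The 3 that were lower at day 6 and higher at 2 h were features 11268, 23279 and 28994, with log2 fold changes of -0.76, -0.84 and -0.61 at day 6 and 0.42, 0.95 and 0.40 at 2 h.

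**Figure D4:**
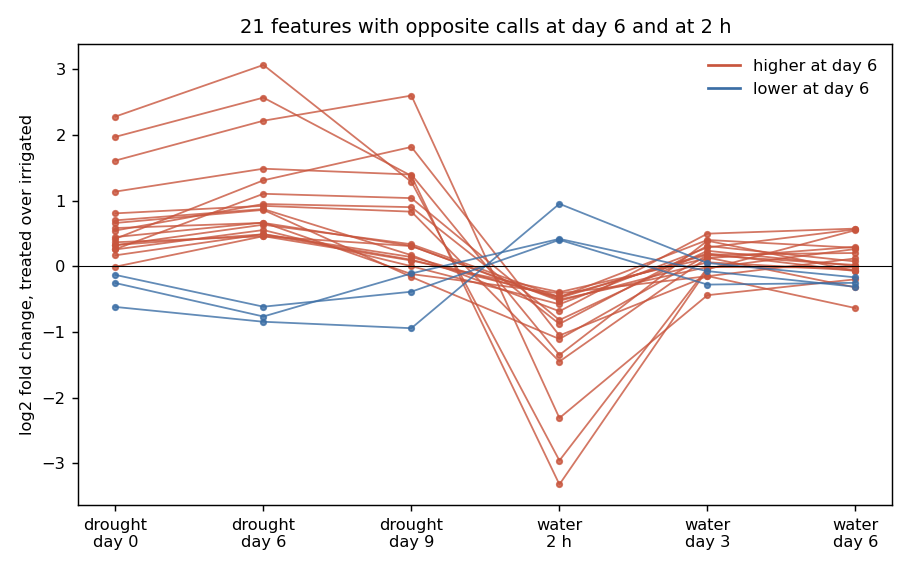
Log2 fold change, treated over irrigated, in the second latest leaf at 6 stages for the 21 features called in opposite directions at day 6 and at 2 h, 1 line per feature. The 18 features that were higher at day 6 (red) lie below 0 at 2 h by choice, and run from -0.44 to 0.50 at day 3 and from -0.64 to 0.57 at day 6 of watering.

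After 3 and 6 days of watering the scores of the day 6 features overlapped between the arms. At day 3 the treated libraries scored 0.42, -0.27 and -0.34 and the controls 0.17, -0.57 and 0.40. At day 6 of watering the treated libraries scored -0.18, 0.50 and 0.22 and the controls -0.07, -0.19 and 0.26, so the scores overlapped at both stages. Of the day 6 features 0 were called again by edgeR at day 3, where 0.00477% of all features were called, and DESeq2 called 1. At an unadjusted p under 0.05, which 2132 of all features had at day 3, there were 7 higher and 5 lower ones in the same direction. At day 6 of watering 1 was called again by edgeR, where 0.487% were called, and 10 with the replicate block and 20 by DESeq2. At that stage 134 of the 214 higher features had a positive fold change (62.6%, beside 48.1% of all features) and 85 of the 157 lower ones a negative one (54.1%, beside 51.8%). Of them 31 and 18 had an unadjusted p under 0.05 in the same direction, as had 3579 of all features in either direction. Spread within groups was 0.50 and 0.51 (root mean square SD of log2 CPM) in control and treated leaves at day 3, so few calls there do not show that the arms were alike. Feature 35558 stood at 6.83 ± 0.99 CPM in treated and 9.81 ± 9.50 CPM in control leaves at day 3, and feature 9453 at 28.2 ± 14.1 against 18.6 ± 8.12 CPM. Control levels of feature 35558 thus went from 89.3 CPM at day 6 to 9.81 CPM at day 3 of watering, while its treated levels stayed between 2.23 and 6.83 CPM from day 6 onward.

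**Figure D5:**
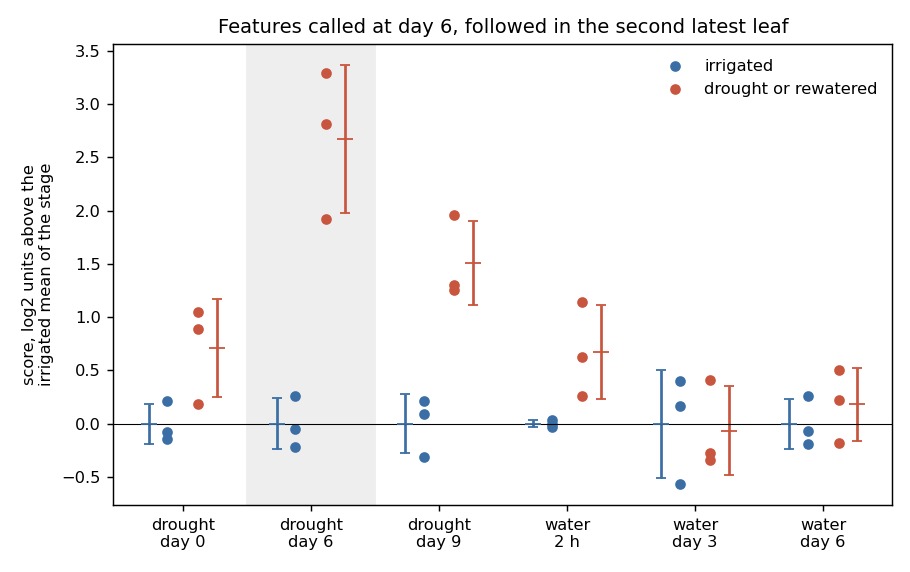
Score of the 371 features called at day 6 in each library of the second latest leaf at 6 stages, in log2 units above the irrigated mean of the stage. Points are libraries and bars show mean ± SD (n = 3), and the gap at day 6 (shaded) holds by choice of the features. Treated libraries lie above all irrigated ones at drought day 9 (1.51 ± 0.40) and at 2 h, and overlap them at drought day 0 and at days 3 and 6 of watering.

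Over all features, and among 6 other comparisons, the day 6 fold changes of this leaf were most like those of the latest leaf at day 6 (r = 0.61, Spearman's rho = 0.54 across 20514 features) and of drought day 9 (0.51 and 0.32 across 20950 features). The values were 0.29 and 0.31 for drought day 0, 0.20 and 0.09 for 2 h of watering, -0.17 and -0.08 for day 3 and -0.02 and 0.04 for day 6 of watering. Features within libraries are not independent replicates, and these values are a description of the libraries.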

How the data were processed

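The deposited values are raw counts over 55986 rows. Per the submitters' processing notes, the authors used STAR, featureCounts 2.0.0 and the genome build IRGSP-1.0. Annotation, strand setting and handling of multi-mapping reads: not given in the sources used here. Every column was matched to a sample by its library name. Counts were filtered with filterByExpr and scaled by TMM. They were fitted with edgeR 4.0.16 (R 4.3.3, glmQLFit and glmQLFTest) to all 36 libraries of the leaf with 1 mean per group. The main fit set legacy to FALSE, which is not the default of this version. That setting gives the 371 calls of an earlier account of these data. The default, named legacy dispersion below, gave 303 calls at day 6. The latest leaf and the leaf comparison used libraries of at least 100000 counts, which left out 1 of 72. No replicate pair was identical (0 of 6). Treated and control libraries of the same number at day 6 were not paired in the main fit (r of -0.30 to 0.12).

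Named features were the 8 largest rises and falls with at least 10 CPM in the higher group and no overlap, the 4 of each direction with the highest counts, up to 4 of each direction called at day 6, day 9 and 2 h or in both leaves, and up to 3 of each sign for changes between leaves and stages. Features named for changes between leaves and stages needed a mean of at least 10 CPM in the highest of the groups compared. Members, rule and lists were chosen with earlier results of these data known. Alternatives were DESeq2 1.42.0, relative log expression factors, no filter, a replicate block, legacy dispersion (added after seeing the data), the compared libraries alone and leaving out single libraries. Within the second latest leaf the replicate block paired treated and control libraries of the same number at each stage. In the leaf comparison it paired same-numbered libraries of the leaves. Fits were tested on simulated data.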

Additional observations from a re-analysis of the deposited data

Results flagged for a closer look

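Of the 35 features named by rule, 16 had a response at 2 h of watering that differed from that at day 6. The test was edgeR's interaction test in the second latest leaf, which called 2479 of 20950 features (11.8%). Up to 3 of each sign were named because this same test called them, so their result is fixed by choice. The 21 features with opposite calls at day 6 and at 2 h all passed this test too. Their passing was nearly fixed by that choice, because opposite calls imply a change between the stages. Features 24871 and 24872 belong to both groups. Changes are log2 fold changes at 2 h minus those at day 6, with the 2 values given where the feature was not described above.

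Of the large rises, feature 5267 changed by -3.69 (adjusted p = 0.0257), feature 55417 by -4.18 (adjusted p = 0.0248), feature 55164 by -3.28 (adjusted p = 0.0363), feature 18563 by -2.82 (adjusted p = 0.0142) and feature 38938 by -3.85 (adjusted p = 0.00904). Their responses at 2 h were -0.25, -0.78, 0.10, 0.13 and -0.91, none of them called. Features 24872 and 24871 changed by -6.02 and -5.88. Feature 38880 went from 2.94 to -1.51, a change of -4.45 (adjusted p = 0.0132), and feature 17078 from 2.65 to -0.08, a change of -2.73 (adjusted p = 0.00969). Feature 28232 changed by -6.73.

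Among features of high counts, feature 6452 changed by -0.92 (adjusted p = 0.0261) and feature 5767 by -1.22 (adjusted p = 0.00428), while feature 29116 moved back up by 1.56 (adjusted p = 0.0153).

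Feature 6001 gained 6.81 (adjusted p = 0.00217), feature 28120 gained 6.47 (adjusted p = 0.00128) and feature 20184 gained 5.73 (adjusted p = 0.000112). At 2 h they stood at 22.7 ± 28.7, 11.8 ± 6.21 and 23.2 ± 12.4 CPM in rewatered leaves and at 0.593 ± 0.192, 0.248 ± 0.218 and 1.09 ± 0.514 CPM in controls (SD, n = 3 each).

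In feature 35558 the response at day 6 differed from that at day 0, by -4.94 (edgeR adjusted p = 0.0351), where the day 0 response was -0.10.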

How the results depend on the processing

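The 371 day 6 calls were 3 to 672 when single libraries were left out, 24 from the 6 libraries alone, 765 by DESeq2, 265 with the replicate block and 205 at 2-fold or more. Of the 371, 361 stayed called in the same direction with relative log expression factors, 291 without the low-count filter, 303 with legacy dispersion, 207 with the replicate block, 362 by DESeq2 and 16 from the 6 libraries alone. The sign stayed in every fit that gave a value, but these fits reuse the libraries that chose the features. Over 50 named features 343 of 599 values kept the call and 0 reversed. These 50 include the features with opposite calls at 2 h, which were picked after their values were seen.

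The change from day 0 to day 6 (1 call) had 2 with the replicate block, 6 by DESeq2, 3 from the compared libraries and 0 to 3 with libraries left out. From day 6 to day 9 (0) it was 5 by DESeq2 and 0 to 4, and from day 6 to 2 h (2479) 1390 to 2834. The leaf difference (0) was 5 with the replicate block, 2 by DESeq2 and 0 to 1.

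Called again at drought day 0 (0) were 5 by DESeq2. At day 9 (84) there were 50 with the replicate block, 160 by DESeq2 and 2 to 118 with libraries left out. At 2 h (69) DESeq2 gave 128, no filter 44, and libraries left out 2 to 111. At day 3 of watering (0) DESeq2 gave 1. At day 6 of watering (1) it was 0 without the filter or with legacy dispersion, 10 with the replicate block, 20 by DESeq2 and 0 to 2. In the latest leaf (119) it was 270 by DESeq2 and 2 to 155. The causes were not tested. Features near 3 counts, 0.166 to 0.332 CPM, are limited by depth.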
